A study of Sus scrofa with 16 samples.

Results

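Chromatin accessibility at 10 genes that define endothelial cells was examined in the pig: KDR, TEK, TIE1, CDH5, PECAM1, VWF, ERG, FLI1, SOX17 and SOX18. All 10 were found by symbol among 19560 protein-coding genes (PCGs) placed on chromosomes by the RefSeq annotation of Sscrofa11.1. A peak was assigned to a member when it overlapped, by at least 1 bp, the gene body with 10 kb on either side, or a promoter, defined as the stretch between 2.2 kb before and 500 bp after an annotated start. Peaks of the different tissues and ages that touched each other were joined into 288665 open regions, of which 270 lay at the members. The rule used position only, and no measured value entered it.

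Open chromatin had been mapped by ATAC-seq, in which a transposase inserts adaptors into accessible DNA, in 16 libraries forming 8 groups of 2 replicates. In newborn pigs, which the labels place at day 0 and the study at the age of 1 day, lung, heart, kidney, liver, skeletal muscle and spleen were sampled, and liver was taken again from suckling pigs at 28 days and from adults at 180 days. All animals were female crossbred domestic pigs, which the study describes as full sibs of a Berkshire by Tibetan cross, with all 6 newborn tissues taken from the same 2 pigs, and it names longissimus dorsi as the muscle. Nuclei came from frozen whole tissue with no endothelial gate, and the share of endothelial nuclei was not measured. In such bulk samples fewer endothelial nuclei and less open chromatin per nucleus cannot be told apart.

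Each group was deposited as 1 list of peaks that both replicates held, with the −log10 p of every peak in either library. These lists held from 57126 peaks in muscle to 141689 in suckling liver. The lists hold no read counts, and the median −log10 p of the libraries ran from 6.15 to 26.0. By the informative reads that the study tabulates, which were not used here, the lung libraries were the deepest and muscle was not the shallowest tissue, and the part of depth in the counts below was not tested. Values were turned into percentiles within a library, in which 100 stands for the strongest peak of its list. A missing peak is one that was not called, which does not show closed chromatin. Genes of the tissues themselves were checked against the labels: promoters of SFTPC, SFTPB and NKX2-1 were open in lung (3 of 3 genes), those of ACTN3, MYLPF and CKM in muscle (3 of 3), and those of CD79A and TLX1 in spleen (2 of 2). Heart had 2 of 2, kidney 2 of 3, newborn liver 2 of 3 and both later livers 3 of 3 of their own genes. Not all of these genes set a tissue apart, since ACTN3 and the liver gene APOA2 had a promoter peak in all 8 lists and CD79A in all but heart, whereas SFTPC and SFTPB were open in lung alone, MYLPF in muscle alone and TLX1 in spleen alone.

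Endothelial cells line every blood vessel, and they recognise one another and the growth factors around them through a small set of membrane proteins. KDR is the main receptor for vascular endothelial growth factor, TEK is the angiopoietin receptor, and TIE1 is its partner. CDH5 (VE-cadherin) and PECAM1 build the junctions between neighbouring cells, while VWF is the clotting protein that endothelium stores and releases. ERG and FLI1 are ETS transcription factors and SOX17 and SOX18 belong to the SOXF group, and together they keep endothelial genes switched on. PECAM1, FLI1, ERG, TEK and VWF are also used by blood cells, among them platelets and their precursors.

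The share of a tissue's peaks that lay at the endothelial loci was highest in lung and lowest in muscle. At the 10 loci 110 peaks were called in lung, 71 in heart, 132 in kidney, 118 in newborn liver, 97 in spleen and only 23 in muscle. Because the lists differ in length, these counts were set against their totals, and intervals are exact 95% binomial limits that cover counting error only. Lung reached 13.6 per 10000 peaks (11.2 to 16.4) and muscle 4.03 (2.55 to 6.04), so their intervals did not overlap. Spleen followed lung with 11.5 (9.33 to 14.03). Kidney at 9.91 (8.29 to 11.7), newborn liver at 9.83 (8.14 to 11.8) and heart at 9.74 (7.61 to 12.3) had intervals that overlapped one another, that of spleen and, slightly, that of lung.

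**Figure D1:**
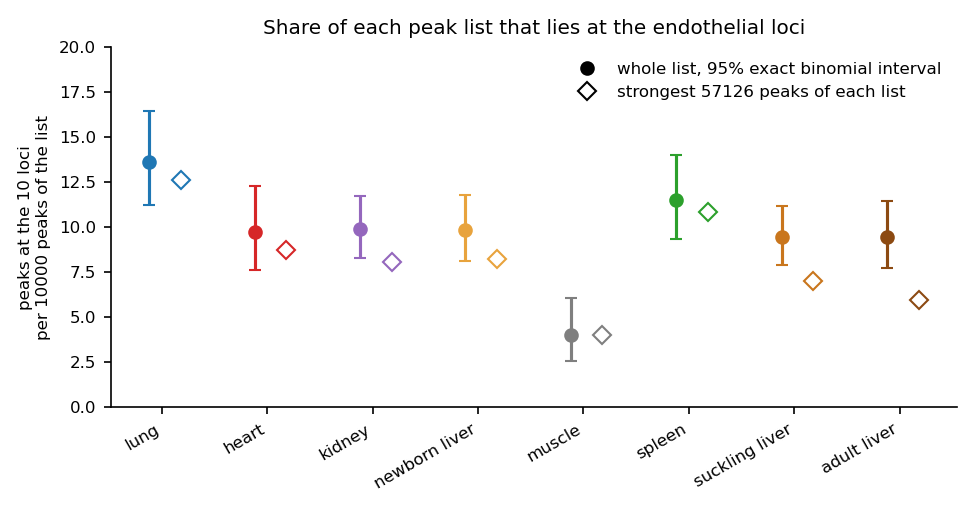
Peaks at the 10 endothelial loci per 10000 peaks of each list (vertical axis) for the 6 newborn tissues and the 2 later liver ages; filled circles are whole lists with exact 95% binomial intervals, open diamonds the 57126 strongest peaks of each list. Lung is highest (13.6) and muscle lowest (4.03) on both measures, and muscle has the same value in both because its list is the shortest.

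Lung stayed highest and muscle lowest in lists of equal length, whichever replicate ranked the peaks. When every list was reduced to its 57126 strongest peaks, 72 lay at the loci in lung, 62 in spleen, 50 in heart, 47 in newborn liver, 46 in kidney and 23 in muscle. Ranking the peaks by either replicate alone gave 72 and 78 in lung, 54 and 63 in spleen, 42 and 55 in heart, 44 and 47 in kidney, and 31 and 42 in newborn liver. Both lung values lay above those of every other tissue. Muscle stayed lowest at 23, a count that could not move because its whole list was kept. All lists still held only peaks of both replicates, so no ranking removed a library. No test was made of these counts, since each list pools its 2 libraries and peaks are not replicates.

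In the whole lists, promoters of the members were open nearly everywhere except in muscle. A promoter peak was present at 9 of 10 members in lung, where 70.4% of all PCGs had one. The count was also 9 of 10 in heart (67.9% of PCGs), kidney (75.1%), newborn liver (73.5%), spleen (68.8%), suckling liver (74.8%) and adult liver (69.7%). Muscle had one at only 4 of 10 members, against 61.4% of PCGs, namely KDR, PECAM1, VWF and ERG. The promoters of TEK, TIE1, CDH5, FLI1 and SOX17 thus carried a peak in lung and none in muscle. This was 5 of 10 members, a pattern seen at 10.8% of PCGs, while 0 members and 1.80% of PCGs showed the reverse. SOX18 had no promoter peak in any of the 8 lists, as did 17.0% of PCGs. With a promoter of 1 kb on either side, shorter upstream but longer downstream, muscle had 5 members with a peak. The share of PCGs was not counted for this window. With the IDR (irreproducible discovery rate, a measure of how well replicates rank a peak alike) held to 0.05 or lower, a promoter peak was left at 2 members in lung, CDH5 and PECAM1 (40.6% of PCGs), 0 in heart (38.7%), 4 in kidney (56.1%), 2 in newborn liver (43.9%), 0 in muscle (36.9%), 1 in spleen (42.9%), 6 in suckling liver (55.2%) and 5 in adult liver (56.7%).

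**Figure D2:**
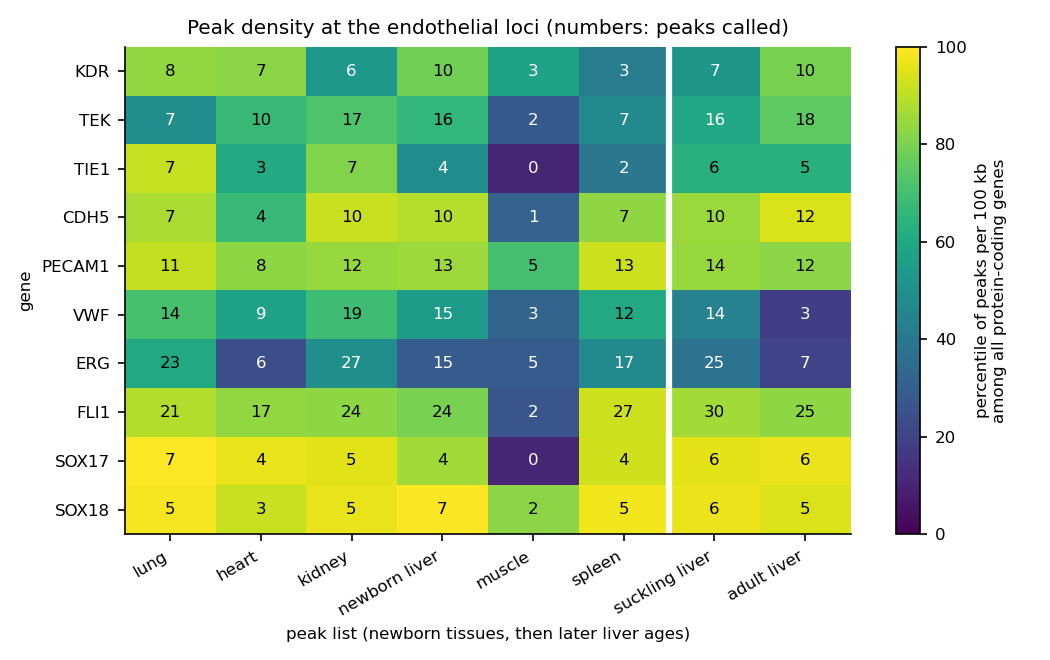
Percentile of peaks per 100 kb of locus among all protein-coding genes (colour, 0 to 100) for each member (rows) in each list (columns); numbers in the cells are the peaks called. The muscle column is darkest, with 0 peaks at TIE1 and SOX17, and SOX17 in lung stands at percentile 99.8.

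Peak density, taken as peaks per 100 kb of locus and ranked among all PCGs, showed the same contrast gene by gene. The median percentile of the members was 87.8 in lung, 81.9 in kidney, 79.2 in newborn liver, 75.2 in heart, 72.0 in spleen and 30.2 in muscle. In muscle all 10 members fell below the median of the other 5 tissues, by 15.0 to 85.3 percentile points, although 60.3% of all PCGs were above it there. In lung 9 of 10 members were above the median of the others, compared with 45.0% of PCGs, and TEK was the exception. The highest percentile fell in lung for 5 members (KDR, TIE1, VWF, ERG and SOX17), and the lowest fell in muscle for 8. In heart only 5 of 10 members were above the median of the other tissues, against 56.9% of PCGs. Heart and lung therefore did not form a pair at these loci by this measure.

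The receptors differed in which tissue they favoured. KDR (chromosome 8, 41809116 to 41856379, minus strand) carried 8 peaks in lung, 7 in heart, 6 in kidney, 10 in newborn liver, 3 in muscle and 3 in spleen. Its promoter region, 0.2 kb inside the gene, was called in all 8 lists, and its promoter peak was strongest in kidney. The 2 kidney libraries placed that peak at percentiles 89.9 and 87.8, whereas the lung libraries disagreed at 17.7 and 73.7 and the muscle libraries stood at 15.1 and 42.3. Kidney thus lay above all other libraries, the next being spleen at 79.7 and 56.1.

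TEK (chromosome 1, 195938177 to 196052294, minus strand) was the member that lung did not favour. It carried 17 peaks in kidney, 16 in newborn liver and 10 in heart, but only 7 each in lung and spleen and 2 in muscle. Its promoter region 0.3 kb inside the gene lay at percentiles 13.8 and 41.8 in lung, 63.7 and 75.0 in heart, 30.2 and 21.5 in kidney and 69.5 and 81.4 in newborn liver. Lung was below heart and newborn liver in both libraries, while kidney and spleen (71.5 and 39.0) overlapped lung. In kidney the strongest promoter peak was another one, 20.6 kb into the gene at an internal start, at 71.0 and 58.4. An intronic region 6.2 kb inside TEK was called in all 8 lists.

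TIE1 (chromosome 6, 167919662 to 167947253, minus strand) had 7 peaks in lung and 7 in kidney, 4 in newborn liver, 3 in heart, 2 in spleen and none in muscle. Its density percentile in lung, 91.2, exceeded the median of the other tissues by 42.4 points, a gap that 1.498% of PCGs reached. The promoter region called in most lists lay 6.4 kb inside the gene, at an internal start, and was found in 6 lists. Its percentiles ran from 42.2 in a heart library to 80.5 in a lung library, and the libraries of lung (80.5 and 65.7), kidney (57.5 and 77.04) and newborn liver (58.9 and 79.2) overlapped.

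The junction gene CDH5 had a promoter region that was strongest in lung. Its gene model (chromosome 6, 27108560 to 27142145, plus strand) is partial at the 3′ end in RefSeq. The promoter region at the annotated start stood at percentiles 76.4 and 71.1 in lung, 31.6 and 32.2 in heart, 24.1 and 11.4 in kidney, 45.6 and 6.43 in newborn liver and 64.5 and 8.94 in spleen, and muscle had none. Both lung libraries were higher than every other library. In lung the IDR of that peak was 0.0324, and in the other newborn tissues it was 0.603 or higher.

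Sequences are shown for the VWF promoter, whose window could be read outside exons and held motifs that were searched, and for a distal region of CDH5 that had the lowest p in the muscle contrast below and was added after its values were seen. They are reference sequence of Sscrofa11.1 on the plus strand, which is the strand of both genes, from the 300 bp centred on the lung summit. Stretches that overlap an annotated exon were left out. Capitals mark the motifs, on either strand. The first is chr5:64517328-64517538, in the first part of VWF, with a SOX core (ACAATG) and a GATA core (AGATAA), both read on the opposite strand. The second is chr6:27147465-27147764, the distal region of CDH5, with an ETS core (CAGGAAGT) on the opposite strand and a GATA core.
VWF promoter: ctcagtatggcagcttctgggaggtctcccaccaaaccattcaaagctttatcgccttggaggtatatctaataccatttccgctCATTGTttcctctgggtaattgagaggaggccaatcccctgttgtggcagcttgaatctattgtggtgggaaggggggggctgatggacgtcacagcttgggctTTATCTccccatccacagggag
CDH5 distal region: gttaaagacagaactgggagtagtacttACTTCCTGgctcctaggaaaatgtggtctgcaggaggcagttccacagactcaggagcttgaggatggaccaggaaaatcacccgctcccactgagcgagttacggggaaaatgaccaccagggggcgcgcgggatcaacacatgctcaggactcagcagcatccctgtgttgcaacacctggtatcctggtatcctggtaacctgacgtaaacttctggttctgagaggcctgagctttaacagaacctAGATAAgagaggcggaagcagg

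This distal region lay 38.8 kb downstream of the CDH5 start, past the annotated end of the gene, and was called in all 8 lists. Its percentiles were 88.6 and 86.9 in lung, 80.3 and 73.3 in heart, 90.4 and 93.8 in kidney, 80.8 and 90.3 in newborn liver, and 76.9 and 74.4 in spleen. Muscle stood apart at 33.1 and 29.1, below both libraries of every other newborn tissue. In adult liver the 2 libraries disagreed, at 73.8 and 16.2, after 91.4 and 94.9 in suckling liver.

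PECAM1 (chromosome 12, 14667643 to 14723296, plus strand) had peaks in every tissue, with a promoter peak in each. It carried 11 peaks in lung, 8 in heart, 12 in kidney, 13 each in newborn liver and spleen, and 5 in muscle. Of its 28 regions 4 were called in all 8 lists, the highest count of any member, while the shorter SOX18 had 2 of 9. Its promoter peak reached percentiles of 81.4 and 70.8 in lung and 73.7 and 76.5 in kidney, and stood at 43.0 and 13.1 in muscle. An intronic region 37.4 kb into the gene was strong in muscle too, at 68.9 and 77.3, beside 88.4 and 83.7 in lung. Muscle was thus low at the promoter of PECAM1 but not at every region of the gene.

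VWF (chromosome 5, 64516627 to 64655938, plus strand) had 14 peaks in lung, 9 in heart, 19 in kidney, 15 in newborn liver, 12 in spleen and 3 in muscle. Heart was the tissue with the highest single promoter value at VWF, at percentiles 91.2 and 70.2, but newborn liver (69.8 and 89.5) and spleen (89.95 and 61.4) overlapped it. In muscle the replicates disagreed, at 63.3 and 4.03. The region 0.9 kb inside the gene, whose sequence is given above, was called in all 8 lists.

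**Figure D3:**
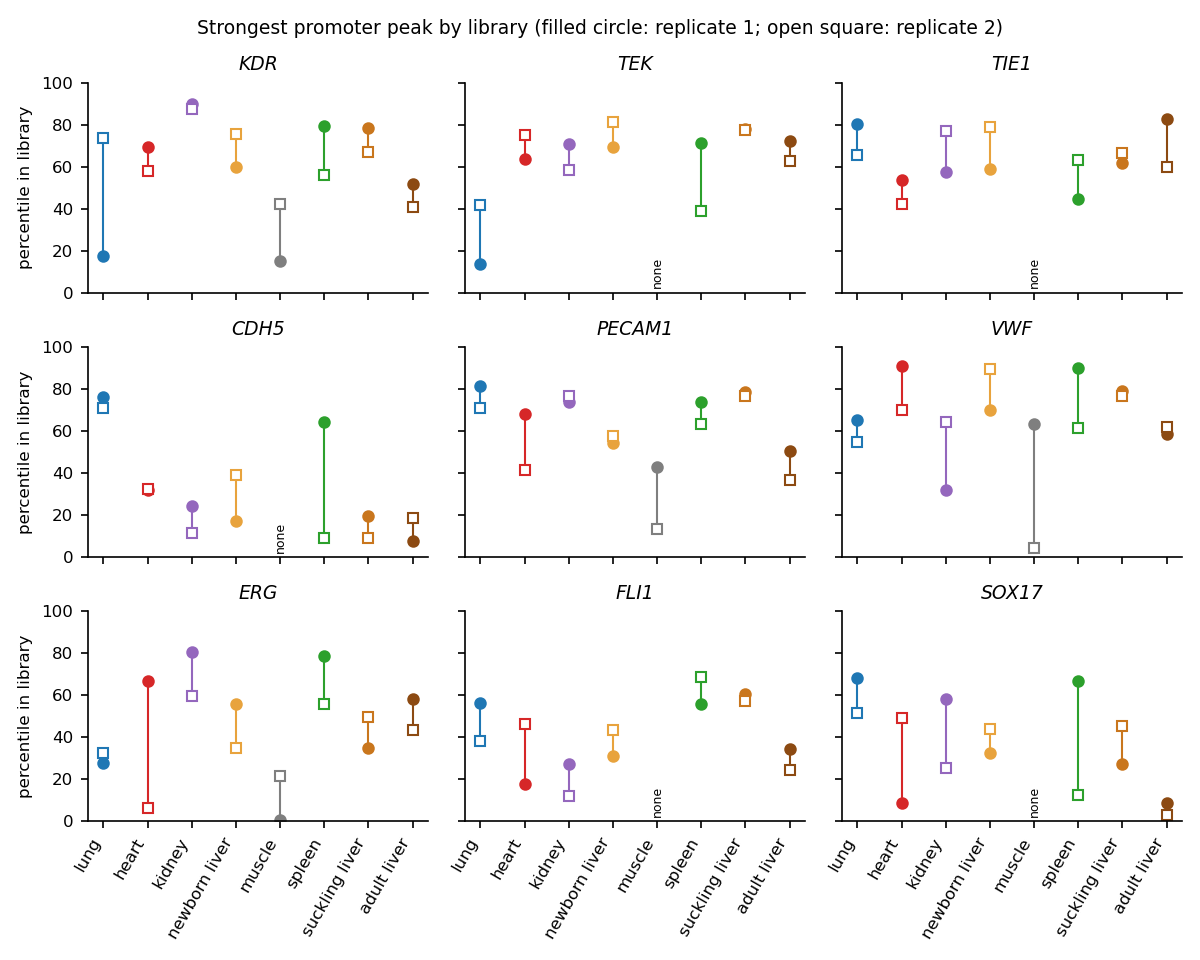
Percentile within the library (vertical axis, 0 to 100) of the strongest promoter peak of 9 members in each list, which at genes with several starts is not always the same peak; filled circles are replicate 1, open squares replicate 2, and lines join the replicates of a group. CDH5 is highest in both lung libraries (76.4 and 71.1), and muscle lacks a promoter peak at 5 of the 9 genes.

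Among the transcription factors, ERG (chromosome 13, 201999237 to 202302572, minus strand) has the longest locus, 323.3 kb with its flanks. It carried 23 peaks in lung and 27 in kidney, against 17 in spleen, 15 in newborn liver, 6 in heart and 5 in muscle. Heart was the lowest tissue at ERG, with a density percentile of 23.8 beside 60.6 in lung. Only 6 of its peaks were called in heart, and they lay between 173.3 and 214.3 kb into the gene, around an internal start. The promoter region called in most lists was the one at this start, 173.3 kb from the outermost 5′ end, and it was found in all 8 lists.

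FLI1 (chromosome 9, 55612905 to 55749784, plus strand) was most densely covered in spleen, with 27 peaks, compared with 24 in kidney and newborn liver, 21 in lung, 17 in heart and 2 in muscle. A joined region 9.2 kb inside FLI1 was called in all 8 lists, at percentiles 68.2 and 67.0 in spleen, 71.3 and 45.6 in kidney, 56.4 and 38.1 in lung and 6.72 and 21.7 in muscle. Spleen and kidney overlapped there, and muscle was below these tissues in both libraries. The kidney and muscle peaks in it did not reach the promoter of FLI1 itself, and the region also overlaps the promoter of LOC100516820. Leukocytes use FLI1 as well, and promoters of the leukocyte list (PTPRC, CD3E, CD79A, SPI1 and CSF1R) were open at 5 of 5 genes in spleen, 4 in newborn liver, 2 in lung, 1 each in kidney and muscle and 0 in heart. Among all PCGs the shares were 68.8% in spleen, 73.5% in newborn liver, 70.4% in lung, 75.1% in kidney, 61.4% in muscle and 67.9% in heart. The part of leukocytes in the FLI1 values was not tested.

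SOX17 (chromosome 4, 76854218 to 76857143, minus strand) had the highest density of all members in lung, with 7 peaks in 22.9 kb and a percentile of 99.8. It had 5 peaks in kidney, 4 in heart, newborn liver and spleen, and none in muscle. Its percentile in muscle fell short of the median of the other tissues by 85.3 points, and 0.0511% of PCGs had a gap as large in that direction. Its promoter peak stood at 68.0 and 51.4 in lung and 8.35 and 48.9 in heart. Several small lung peaks over its exons had low values in replicate 2, and they also lie in the promoter of the neighbour LOC100627466.

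SOX18 (chromosome 17, 62869868 to 62871758, minus strand) lacked a promoter peak but not open regions near it. A region 3.5 kb upstream was called in all 8 lists. Its percentiles were 87.7 and 78.6 in lung, 89.4 and 78.9 in spleen, 75.8 and 73.2 in kidney, 62.8 and 58.4 in newborn liver, 64.7 and 8.96 in heart, and 27.6 and 34.7 in muscle. Lung and spleen did not overlap the other newborn tissues there. A second region called everywhere, 9.2 kb upstream, lies over the promoter of the neighbour TCEA2.

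**Figure D4:**
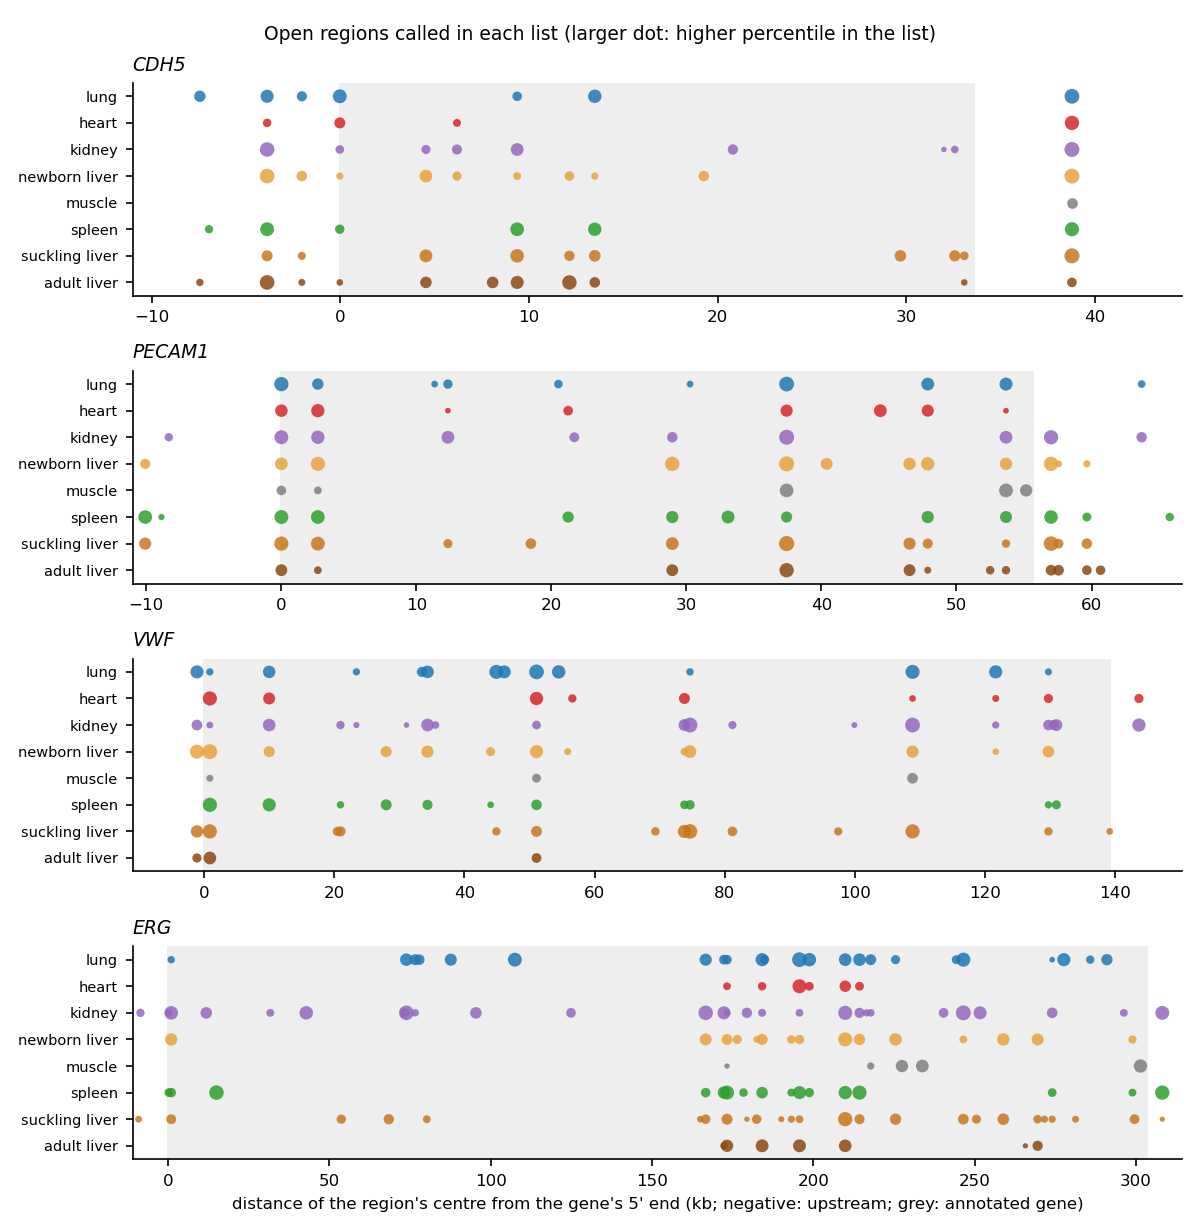
Open regions at CDH5, PECAM1, VWF and ERG in each list (rows), by distance of the region's centre from the gene's 5′ end in kb (horizontal axis; grey marks the annotated gene); larger dots have a higher percentile in the list. Muscle has 1 region at CDH5 and 3 at VWF, adult liver 3 at VWF and 7 at ERG, and the heart regions of ERG cluster between 173.3 and 214.3 kb.

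Sharing of regions between tissues was also counted, and it depends on how many regions each tissue holds. Of 106 lung regions at the members, 17.0% were also called in muscle, compared with 36.7% of all lung regions. With kidney the shares were 64.2% and 61.9%, with newborn liver 59.4% and 59.7%, with spleen 49.1% and 50.2%, and with heart 46.2% and 49.8%. Taken from lung, the share with these 4 tissues was thus about that of the genome, while that with muscle was lower. With 23 muscle regions at the members, the low share with muscle follows from that count and adds no support to it. Taken from the other tissues, the share also called in lung was above that of the genome. It was 72.1% of heart regions (54.7% of all), 55.3% in kidney (37.1%), 56.25% in newborn liver (40.2%) and 57.8% in spleen (47.3%). These differences were not tested, since regions of 1 list are not replicates. Of the 23 muscle regions, 18 were also found in lung (78.3%, beside 51.4% of all muscle regions), and 88 lung regions had no counterpart in muscle. Among all 270 regions, placed by the member gene alone, 170 were intronic, 31 exonic, 23 at its promoters and 46 in its flanks. They were called in 1 list only in 47.0% of cases (48.4% of all regions) and in all 8 lists in 5.19% (6.55%).

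Regions called in lung and heart but in at most 1 other newborn tissue numbered 7 of the 270, and the share over the genome was not counted. They lay at KDR 8.2 kb downstream of the 5′ end, TIE1 5.3 kb upstream, PECAM1 12.3 kb downstream, ERG 198.8 kb downstream, FLI1 2.8 and 46.6 kb downstream, and SOX17 9.8 kb downstream. None had an IDR of 0.05 or lower in either tissue. The strongest in lung was the intronic ERG region, at percentile 72.3 of the lung list and 24.2 of the heart list.

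The shares of peaks found in 1 newborn tissue alone were also set beside the whole lists, without a test. Such peaks made up 23.6% of the lung peaks at the loci (21.8% of the whole lung list), 9.86% in heart (17.4%), 25.0% in kidney (34.6%), 23.7% in newborn liver (28.0%), 17.4% in muscle (22.1%) and 18.6% in spleen (24.2%). Of the 116 such peaks 6 had an IDR of 0.05 or lower. They were an intronic lung peak of VWF at 54.5 kb, kidney peaks of ERG at 42.8 and 251.7 kb, a newborn liver peak of PECAM1 at 28.7 kb, and spleen peaks of TEK at 17.6 kb and of ERG at 15.0 kb. Among all peaks at the loci, such an IDR was rarer than in the whole list in every newborn tissue. The shares were 13.6% beside 20.5% in lung, 4.23% beside 19.8% in heart and 26.5% beside 33.8% in kidney.

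Whether strength differed was tested where a region was called in all 6 newborn tissues. Ranks within each of the 12 libraries were turned into normal scores, and each tissue was compared with the mean of the other 5 by limma over 20067 regions with Benjamini-Hochberg adjustment. Of these, 14 lay at members. Because muscle had to call them, this set leaves out most of the loci described above.

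**Figure D5:**
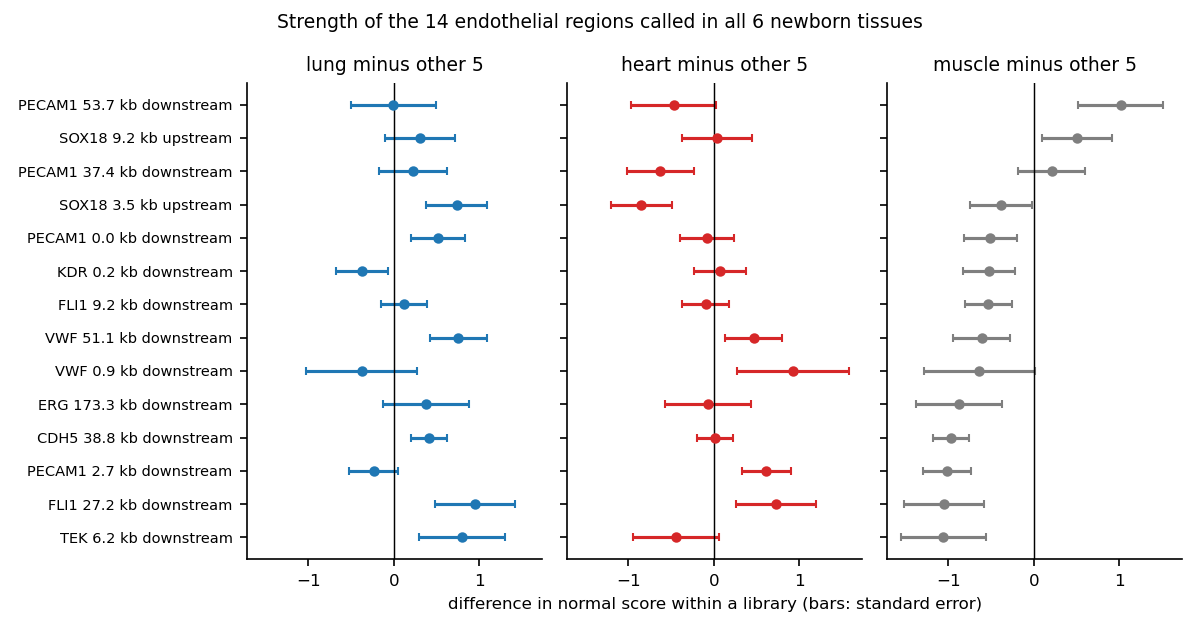
Difference in normal score (horizontal axis) between lung, heart or muscle and the mean of the other 5 newborn tissues, for the 14 endothelial regions called in all 6; points are limma estimates and bars are standard errors. In muscle 11 of 14 estimates lie below 0, in lung 10 lie above 0, and none passed the adjusted threshold.

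No member region passed an adjusted p of 0.05 in the lung contrast, in which 6 regions did over the genome (0.0299%), nor in the heart contrast (8 regions, 0.0399%). The same was true for kidney (35 regions, 0.174%), liver (33, 0.164%), spleen (25, 0.125%) and muscle (98, 0.488%). Unadjusted p-values under 0.05 were found at 2 of 14 member regions in muscle (15.1% of all regions), 1 in heart (10.1%), 1 in kidney (18.5%), 1 in spleen (11.6%) and 0 in lung (9.59%) and liver (9.86%). By limma with Benjamini-Hochberg adjustment the distal CDH5 region came closest, with a difference of −0.97 ± 0.21 (SE) in muscle and an adjusted p of 0.084. A PECAM1 region 2.7 kb into the gene differed by −1.02 ± 0.29 there (adjusted p = 0.143). The median difference over the 14 regions was −0.57 in muscle (0.02 over all regions) and 0.35 in lung (0.05). On a log2 scale of −log10 p after quantile normalization, the CDH5 region did pass in muscle, with a difference of −1.60 and an adjusted p of 0.048 in limma.

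Leaving muscle out allowed more of the loci to be tested, a choice made after the data had been seen. Regions called in the other 5 tissues numbered 26265, of which 31 lay at members. Again none passed in any contrast, and the lowest adjusted p from limma was 0.154, in the kidney contrast. In lung 21 of 31 estimates were above 0, with a median of 0.30, and in heart 11 of 31 were, with a median of −0.21.

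Liver was followed from birth to 180 days. The loci held 118 peaks at birth, 134 at 28 days and 103 at 180 days, or 9.83, 9.46 (7.92 to 11.2) and 9.45 (7.71 to 11.5) per 10000 peaks. Their counting intervals overlapped, and a difference between ages was not tested. Among the 57126 strongest peaks of each list the counts were 47, 40 and 34. Promoter peaks were present at the same 9 members at all 3 ages. The median density percentile was 79.2, 73.6 and 81.3.

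VWF differed most between the ages by peak density. It carried 15 peaks at birth, 14 at 28 days and 3 in adults. Its density percentile was 54.4, 44.3 and 18.7, and adult liver was 35.7 points below newborn liver, a gap as large as at 2.24% of PCGs. The 3 regions of adult liver were both promoter regions and the exonic region 51.1 kb into the gene, and all had been called at birth. At the promoter itself percentiles were 58.7 and 61.7 in adult liver, 79.3 and 76.5 in suckling liver and 69.8 and 89.5 in newborn liver, so that peak was still among the stronger ones of the adult list. An intronic VWF region at 108.9 kb stood at 79.8 and 86.1 in suckling liver and was not called in adult liver.

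ERG had 15, 25 and 7 peaks at these ages, and its 7 adult peaks lay between 172.3 and 269.5 kb into the gene. KDR had 10, 7 and 10 peaks, and its density percentile went from 78.5 to 52.9 and 79.98. FLI1 had 24, 30 and 25 peaks, TEK 16, 16 and 18, and CDH5 10, 10 and 12. TIE1 had a promoter peak at another internal start, 10 kb into the gene. That peak was found in adult liver alone among the ages, at percentiles 83.0 and 60.02, with an IDR of 0.0178, while the promoter region of the younger livers at 6.4 kb was not called in adults. The other peak of 1 age with an IDR of 0.05 or lower was an adult one at CDH5, 8.1 kb into the gene.

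The shares of regions kept between ages were set beside those of the whole genome, without a test. Of 112 newborn liver regions, 58.9% were called again in adult liver (66.5% of all newborn liver regions), and of 96 adult regions 68.8% had been present at birth (71.6%). Peaks of 1 age made up 24.6% of the newborn peaks at the loci (17.8% of the list), 27.6% of the suckling peaks (26.7%) and 21.4% of the adult peaks (19.1%). Blood cell genes were checked beside these values. Promoters of the leukocyte list were open at 4, 5 and 4 of 5 genes in newborn, suckling and adult liver, and those of 4 megakaryocyte and platelet genes at 3, 4 and 3. Among all PCGs the shares at these ages were 73.5%, 74.8% and 69.7%. The part of blood cells in the VWF and ERG values was not tested.

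Strength in liver was compared over 67294 regions called at all 3 ages, of which 60 lay at members. The limma fit on 6 libraries called no region at an adjusted p of 0.05 anywhere, which is 0% for suckling minus newborn, 0% for adult minus suckling and 0% for adult minus newborn. At an unadjusted p under 0.05 there were 1, 5 and 6 member regions in these contrasts, compared with 8.40%, 15.3% and 8.90% of all regions. The lowest adjusted p from limma at a member was 0.322, shared by 4 regions in adult minus suckling. An example is a region 12 kb downstream of the SOX17 start, with a difference of −1.44 ± 0.33 (SE). Adult estimates were mostly negative at the members, as 22 of 60 were above 0 against newborn (48.1% of all regions) and 20 of 60 against suckling (49.4%), with medians of −0.28 and −0.26.

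Core motifs of the factor families were counted on both strands in the 300 bp around each summit. The ETS core CAGGAAGT was found in 7.27% of lung peaks at the loci and 3.73% of all lung peaks, and in every list the share at the members was the higher one (4.35% to 9.86%, against 2.56% to 5.41%). The ETS form CCGGAAGT was in 0 member peaks of any list, and in 1.08% to 2.12% of all peaks. The FOX and ETS composite AACAGGAA, an element known from endothelial enhancers, which can overlap CAGGAAGT by 6 letters, was in 6.36% of lung member peaks (3.59% of all) and 11.7% of adult liver member peaks (4.36%), but in none of the 23 muscle peaks (2.39%). The SOX core ACAATG was in 19.1% of lung member peaks (11.7% of all), ACAAAG in 23.6% (18.8%) and the GATA core AGATAA in 17.3% (12.2%). Shares at the members rest on 23 to 134 peaks, they were not tested, and a match of letters is no evidence of binding. Of the 18 windows examined at member promoters and at regions called in all 8 lists, 10 held a motif and 3 an ETS or composite core.

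Other genes of the vascular pathway were counted in the same way. Of 55 listed genes 52 were matched, and 46 had a promoter peak in lung, 45 in heart, 42 in kidney, 45 in newborn liver, 44 in spleen and 33 in muscle, beside the shares of all PCGs given above (70.4% in lung and 61.4% in muscle). A peak in lung and none in muscle was found at 14 of 52 genes (10.8% of PCGs) and the reverse at 1 (1.80%). Of these 14, 7 were receptors and junction genes, among them ENG and CLDN5, a group with 15 of 16 open in lung and 8 in muscle. By contrast, all 5 matched Notch and arteriovenous genes and all 3 of vessel tone and secretion were open in both. The median density percentile of the 52 genes was 84.6 in lung, 79.4 in kidney, 77.8 in newborn liver, 76.9 in heart, 71.5 in spleen and 70.8 in muscle. Muscle was thus level with spleen for the wider list, whereas the median of the members in muscle was 30.2.

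By density percentile, lung differed most from the median of the other newborn tissues at OIT3, EMCN and EDN1. OIT3, a marker of liver sinusoids, had 0 peaks in lung, 6 in newborn liver, 9 in suckling liver and 8 in adult liver. EMCN, the surface protein endomucin, had 6 peaks in lung and a promoter peak there alone of the 8 lists. It also had 4 peaks each in heart and muscle, 3 in kidney, 2 in newborn liver and 1 in spleen. Its density percentile of 66.8 in lung was near that of muscle (64.5) and above that of heart (55.6). EDN1, which encodes the vasoconstrictor endothelin, had 1 peak each in lung, muscle and spleen, 3 in heart, 4 each in kidney and newborn liver, and a promoter peak in all 8 lists.

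The promoters whose strength followed those of the members over the 16 libraries were sought among regions called in all 8 lists. The profile was the mean normal score of 5 joined regions that overlap a member promoter (KDR, PECAM1, VWF, ERG and FLI1), and 10504 other promoter regions were compared with it. It was highest in a spleen library (−0.19, the other at −0.65) and lowest in both muscle libraries (−1.25 and −1.44). Lung stood at −0.96 and −0.67, and the heart libraries lay apart at −0.40 and −1.04. In the FLI1 region the kidney and muscle peaks did not reach the promoter of FLI1 itself. The closest were PTPRE (Pearson's r = 0.815), SLA-DRB1 (0.781), WHRN (0.768), LOC110256626 (0.760), SLA-DRA (0.752), IRF1 (0.750), the region shared by PDZD7 and SFXN3 (0.740), SLC12A9 (0.726) and PPP1R9B (0.725). An r above 0.5 was reached by 2.75% of the regions. The 16 points share tissues and libraries and are not independent, so no p is given.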

How the data were processed

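Per the study's methods, reads were aligned by the authors to Sscrofa11.1 with Bowtie2, filtered with SAMtools 1.3.1, used to call peaks in each replicate with MACS2, and the replicates were matched with the IDR tool at default settings. The deposited −log10 p of each replicate, the smaller of both, and the score made by the authors from the IDR were used. No deposited read counts were used, and the lists also hold peaks of high IDR. Deposited starts were converted to 1-based positions. Regions were the unions of peaks over the 8 lists. Strength was fitted with limma 3.58.1 (R 4.3.3), tested on simulated data first. Replicates are described as biological, and p-values measure only the spread between them. Members, gene lists, motifs and tests were chosen with earlier results of these data known. Named were all members, the promoter region called in most lists, regions called in lung and heart and at most 1 other newborn tissue, peaks of 1 tissue or age with an IDR of 0.05 or lower (up to 12), regions past the threshold, and the 3 pathway genes at which lung differed most. Alternatives were other IDR limits, list lengths, flanks, promoters, scales, a replicate block and leaving out libraries. Genes on unplaced scaffolds were left out, while peaks there stayed in the list totals. A few marker genes and 1 promoter sequence are not reported here.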

Additional observations from a re-analysis of the deposited data

How the results depend on the processing

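Lung had the most and muscle the fewest endothelial peaks for their list length in whole lists and in lists of equal length, but counts moved with the settings. With the IDR at 0.05 or lower, promoter peaks were left at 2 members in lung, 0 in heart, 4 in kidney, 2 in newborn liver, 0 in muscle, 1 in spleen and 5 in adult liver. Peaks at the loci then numbered 15 in lung, 3 in heart, 35 in kidney, 9 in newborn liver, 3 in muscle, 13 in spleen, 33 in suckling liver and 30 in adult liver, or 9.08 per 10000 peaks in lung, 7.78 in kidney, 5.97 in spleen, 3.92 in newborn liver, 2.07 in heart and 1.76 in muscle. Peaks of 1 tissue, with all lists so filtered, were 5, 0, 20, 4, 0 and 6 in the order lung, heart, kidney, newborn liver, muscle and spleen, and peaks of 1 age 1, 16 and 13. With 50 kb on either side the loci held 173, 107, 220, 204, 46 and 158 peaks in these tissues, 223 in suckling and 158 in adult liver, and the peaks of 1 tissue became 57 in kidney, 51 in newborn liver, 7 in muscle and 31 in spleen, those of 1 age 56 in newborn and 60 in suckling liver. In lists of equal length promoter peaks fell to 5 members in kidney and in newborn liver, peaks at the loci to 72 in lung, 46 in kidney, 47 in newborn liver, 62 in spleen, 40 in suckling and 34 in adult liver, peaks of 1 tissue to 6 in kidney and 10 in newborn liver, and peaks of 1 age to 16, 9 and 11. Without replicate 1 or 2 as the ranking library, promoter counts were 6 to 9 in lung, 8 in heart, 6 to 7 in kidney, 5 to 6 in newborn liver, 4 in muscle, 7 to 9 in spleen, 5 to 6 at 28 days and 3 to 6 in adults. Peaks at the loci were then 72 to 78, 42 to 55, 44 to 47, 31 to 42, 23, 54 to 63, 37 to 39 and 27 to 33, in the same order. The muscle counts could not move, because its whole list was kept. Leaving out ERG, added after seeing the data, left 87 peaks in lung and 18 in muscle. In the fits, member regions past the threshold numbered 0 under all settings run except on the log2 scale, where 1 passed in muscle (302 regions over the genome against 98). Leaving out 1 library at a time gave 0 in every contrast, the lone library being taken to vary like the others. The distal CDH5 region kept its direction in all 15 fits, from −1.60 (log2 scale) to −0.81 (normal scores), with adjusted p from limma between 0.048 and 0.273. With a replicate block, 0 member regions passed and 1 region over the genome did in muscle; the labels do not tie these numbers to the 2 newborn pigs, and 3 of 15 tissue pairs had a correlation of deviations above 0.1 (−0.10 to 0.18), so they were not taken as pairs. Of the regions that every newborn list held at this lower IDR, 0 lay at the members, so no fit was possible. The causes of these shifts were not tested. Read depth was not used here, and its part in which peaks were called was not tested.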

Other observations

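Platelets and their precursors also use several of the members. Of 4 megakaryocyte and platelet genes (ITGA2B, GP1BA, GP9 and GP6), promoters were open at 3 each in newborn liver, lung and kidney, 2 in spleen, and 1 each in heart and muscle. Among all PCGs the shares were 73.5% in newborn liver, 70.4% in lung, 75.1% in kidney, 68.8% in spleen, 67.9% in heart and 61.4% in muscle. The counts in newborn liver, lung and kidney were thus near the share of all PCGs. The matched liver sinusoid and lymphatic genes, 7 in all, had a promoter peak at 6 in newborn liver, 5 each in suckling and adult liver, 4 each in lung and heart, 3 each in kidney and spleen, and 2 in muscle. In suckling and adult liver 74.8% and 69.7% of all PCGs had one, and the other shares are those just given. Neither set of genes was tested.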
